A study of Mus musculus with 70 samples.

Results

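A set of 10 genes that mark cerebellar granule neurons was followed through the brain samples: Cbln1, Cbln3, Neurod1, Neurod2, Zic1, Zic2, Pax6, Barhl1, Reln and Fat2. They were taken by symbol from a list of granule neuron identity genes, and all 10 were found among the 50789 genes of the count table. Polyadenylated RNA had been sequenced from mice without the short isoform of Capicua (Cic-S-KO) or without its long isoform (Cic-L-KO) and from WT mice that were littermates of either line, pooled into a single control group. The groups used here were cerebellum and cortex at 12 weeks of age, each with 8 WT, 7 Cic-S-KO and 8 Cic-L-KO samples. Lung at postnatal day 6, with 8 samples of each genotype, entered only as a level. The labels do not say which line a WT mouse came from, nor whether the knockouts are constitutive or which promoter or Cre was used. Nor do they say whether samples sharing a number came from the same animal or whether each sample was a separate animal, so p-values measure the spread between these samples.

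Granule neurons are the small glutamatergic neurons that fill the inner layer of the cerebellar cortex, and their axons, the parallel fibres, contact Purkinje cells and inhibitory interneurons. They descend from Atoh1-expressing precursors of the rhombic lip that proliferate under Sonic hedgehog, leave the cycle and migrate inward. The transcription factors Zic1, Zic2, Pax6 and Barhl1 mark the lineage, and Neurod1 and Neurod2 act in its differentiation and survival. Cbln1 and Cbln3 encode secreted proteins of parallel fibres: cerebellin 1 bridges the parallel fibre terminal and the Purkinje cell spine. Reelin, encoded by Reln, is a secreted guide of neuronal migration, and Fat2 encodes a giant cadherin of parallel fibres. Capicua is a transcriptional repressor that binds ATXN1, the protein expanded in a spinocerebellar ataxia.

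Depth was 20440799 to 30464699 counts per cerebellum library and 20730808 to 32548951 per cortex library, and all brain libraries carried the same batch label. Counts per gene sum over isoforms, so the counts of Cic did not check the genotypes: cerebellum Cic stood at medians of 190.1 CPM (TMM-normalised counts scaled to library size) in WT, 215 for Cic-S-KO and 212 for Cic-L-KO, and no directions below rest on it. Its log2 fold change there was 0.15 in Cic-S-KO (adjusted p = 0.05, edgeR, not called) and 0.15 in Cic-L-KO (adjusted p = 0.0253, edgeR, called). In cortex the medians were 161, 250.3 and 304 CPM in the same order, and every knockout sample stood above every WT sample (0.63, adjusted p = 1.35e-12, and 0.88, adjusted p = 9.49e-18, on the log2 scale, edgeR). Of 5 cortical projection neuron markers, Tbr1, Emx1, Fezf2 and Bcl11b had medians of at most 1.78 CPM in WT cerebellum, while Cux2 stood at 55.7 against 122 in WT cortex. Markers of other tissue were not evenly spread. A set of 5 genes of the hindbrain outside the cerebellum (Hoxa4, Hoxa5, Hoxb4, Hoxb5 and Chat) summed to at most 1.82 CPM in 18 cerebellum libraries, but to 8.29 and 7.39 in WT replicates 1 and 2, 9.41 in Cic-S-KO replicate 6, and 7.82 and 42.4 in Cic-L-KO replicates 3 and 4. The members are given below with all libraries and again without these 5, a choice made after seeing the data. In bulk tissue, fewer granule neurons and less RNA per granule neuron cannot be told apart.

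The sequences upstream of 4 member starts are shown because they hold the range of CpG content among the members and because 2 of these genes, Cbln3 and Neurod1, had the largest differences in Cic-S-KO cerebellum. They are the 250 bases before the start in RefSeq on GRCm38.p6, read on the gene's own strand, which is the minus strand for all 4. The capitals mark CpG dinucleotides. The regions are chr14:55884257-55884506 for Cbln3, chr2:79456637-79456886 for Neurod1, chr9:91365769-91366018 for Zic1 and chr5:22344706-22344955 for Reln.
Cbln3: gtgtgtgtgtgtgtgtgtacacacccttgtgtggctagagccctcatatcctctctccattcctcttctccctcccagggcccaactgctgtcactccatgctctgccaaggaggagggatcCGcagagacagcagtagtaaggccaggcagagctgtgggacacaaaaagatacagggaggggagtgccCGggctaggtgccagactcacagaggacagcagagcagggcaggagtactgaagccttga
Neurod1: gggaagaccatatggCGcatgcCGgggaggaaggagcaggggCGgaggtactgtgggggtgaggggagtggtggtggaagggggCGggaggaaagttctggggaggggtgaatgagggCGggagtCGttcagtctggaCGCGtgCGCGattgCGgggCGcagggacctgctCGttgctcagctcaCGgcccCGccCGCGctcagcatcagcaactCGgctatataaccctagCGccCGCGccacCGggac
Zic1: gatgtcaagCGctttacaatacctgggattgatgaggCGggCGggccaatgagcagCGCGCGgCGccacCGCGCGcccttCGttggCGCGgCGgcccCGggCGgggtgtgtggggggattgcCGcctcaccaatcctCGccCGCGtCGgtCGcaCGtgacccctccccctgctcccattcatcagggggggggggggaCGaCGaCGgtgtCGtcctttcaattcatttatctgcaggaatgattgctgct
Reln: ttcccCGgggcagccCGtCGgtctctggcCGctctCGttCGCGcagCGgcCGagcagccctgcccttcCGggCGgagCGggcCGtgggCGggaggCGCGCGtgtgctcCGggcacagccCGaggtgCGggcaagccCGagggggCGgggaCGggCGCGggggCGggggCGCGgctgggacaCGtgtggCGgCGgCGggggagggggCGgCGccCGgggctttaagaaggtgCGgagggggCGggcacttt
The Cbln3 stretch holds 2 CpG dinucleotides, the Neurod1 stretch 22, the Zic1 stretch 27 and the Reln stretch 37. Over windows of 300 bases (250 before and 50 after the start), the ratio of observed to expected CpG was 0.08 in Cbln3, 0.28 in Fat2, 0.48 and 0.65 in the windows of Barhl1, 0.70 in Neurod2, 0.70 and 1.00 in those of Pax6, 0.84 in Neurod1, 0.97 in Zic1 and 1.01 in Reln. The median over 32851 RefSeq windows was 0.38, with quartiles of 0.18 and 0.75. The 3 members with the largest difference between cerebellum and cortex among those with a window, Cbln3, Fat2 and Barhl1, were also the 3 with the lowest CpG ratios, which is a description over 8 genes. The Fat2 window lies at a RefSeq start 24307 bp inside the GENCODE gene, so it may not be the start used here.

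The octamers TGAATGAA and TGAATGGA, which Capicua is known to bind, were searched on both strands of the 10 windows of these 8 members. A single match was found, TGAATGAA in the second Barhl1 window, beginning 20 bases after a start that lies 4173 bp from the first. Either octamer occurs in 2.47% of all windows of this length, and when TCAATGAA and TCAATGGA were added the share was 3.84%, with the same single match. The E-box CAGATG was found in the Neurod2 window, beginning 118 bases before the start (position -118), against 17.2% of all windows, and CAGCTG in both Barhl1 windows, against 16.3%. No other match of these motifs was found in these windows.

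The members were first compared between WT cerebellum and WT cortex, which checks the label. All 10 were higher in cerebellum, and in each of the 10 genes the lowest cerebellum sample stood above the highest cortex sample. In that comparison 73.5% of 18032 tested genes differed and 38.2% were higher in cerebellum (adjusted p under 0.05, edgeR quasi-likelihood test, as for all calls below), and the members were picked as cerebellar genes, so the count is a description. The differences ranged widely. Cbln3 stood at 1596 to 1965 CPM in cerebellum and 0.463 to 1.08 in cortex, a log2 fold change of 11.15 (SE 0.24). Fat2 differed by 10.33 (SE 0.20), from 608 to 1034 CPM in cerebellum against 0.0769 to 1.17 in cortex. Barhl1 was read at 0 counts in 4 of 8 WT cortex libraries and at no more than 11 counts in the others, against 13.8 to 17.6 CPM in cerebellum. At the other end, Neurod2, a factor also of cortical projection neurons, was 1.66-fold higher in cerebellum (log2 fold change 0.74, SE 0.063, from cortex values of 98.4 to 117 CPM), and Reln, which cortical interneurons also make, was 3.14-fold higher (1.65, SE 0.096). The other 5 lay between: Cbln1 6.20, Zic1 6.10, Neurod1 4.94, Zic2 4.44 and Pax6 3.22 on the log2 scale.

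Per kilobase of exon, the order in WT cerebellum was Cbln3 (mean 365 RPKM), Cbln1 (318), Zic1 (187), Neurod1 (119), Zic2 (101), Neurod2 (58.8), Fat2 (54.6), Reln (15.6), Pax6 (12.6) and Barhl1 (3.91). The ranges over 8 samples overlapped between neighbours for Cbln3 and Cbln1, Neurod1 and Zic2, Neurod2 and Fat2, and Reln and Pax6, and did not overlap for the other 5 neighbouring pairs. In WT cortex Neurod2 led at 33.3 RPKM, with no overlap with Reln at 4.69. Together the 10 members made up 0.59% of the normalised counts in the median WT cerebellum and 0.028% in the median WT cortex. In WT lung, at another age and in another batch, 8 members had medians of at most 1.40 CPM, and Reln and Fat2 had medians of 9.23 and 7.55.

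**Figure D1:**
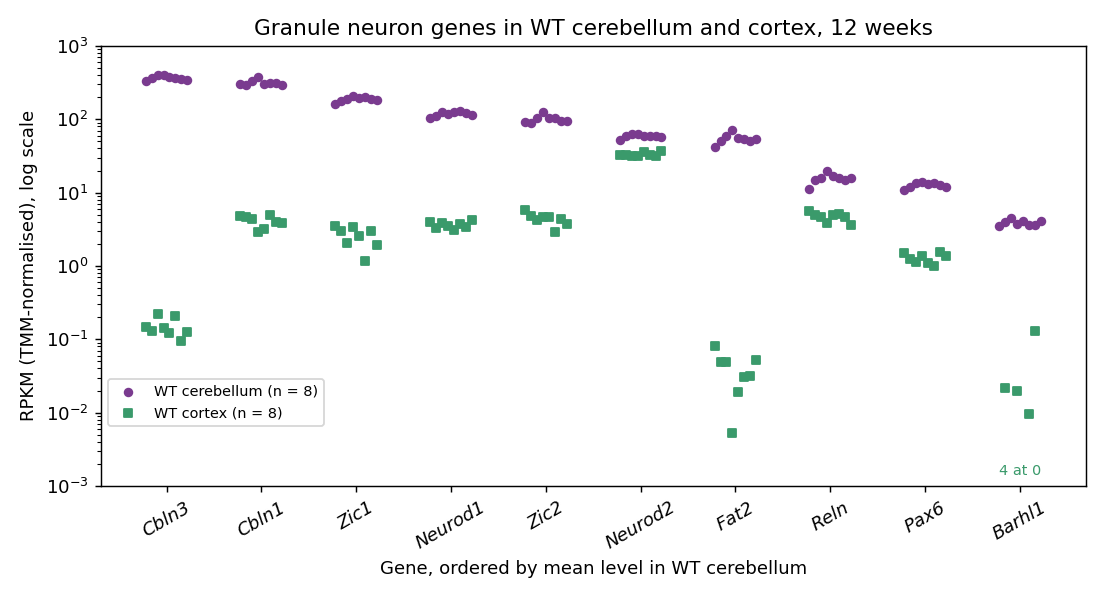
Level of each gene per kilobase of exon (RPKM, log axis) in the 8 WT cerebellum samples (circles) and the 8 WT cortex samples (squares), 1 point per sample; zeros are counted at the foot. The gap between tissues is widest for Cbln3 (365 against 0.149 RPKM) and narrowest for Neurod2 (58.8 against 33.3).

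The main question was whether loss of either Capicua isoform altered these genes in the cerebellum. In Cic-S-KO, 3 of the 10 members were lower than WT, Cbln1, Cbln3 and Neurod1, and none was higher. Over all tested genes 8.23% were called in this comparison and 3.89% were lower. The estimates of all 10 were below 0, with a median log2 fold change of -0.23 against 0.0053 over all 16643 genes, of which 48.6% lay below 0. In Cic-L-KO, 3 of the 10 were also lower and none higher, but they were Neurod2, Zic2 and Pax6. There, 21.5% of all genes were called and 10.6% were lower, and the members' median was -0.21 against 0.0038. Both comparisons use the same WT samples. Without the filter on low counts, Neurod1 alone passed in Cic-S-KO and Neurod2 and Pax6 in Cic-L-KO (Zic2 then had an adjusted p of 0.068, edgeR). With the replicate number as a block, Cbln1, Cbln3 and Neurod1 did not pass in Cic-S-KO (adjusted p = 0.0612 to 0.115, edgeR). These numbers were not taken as pairs.

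**Figure D2:**
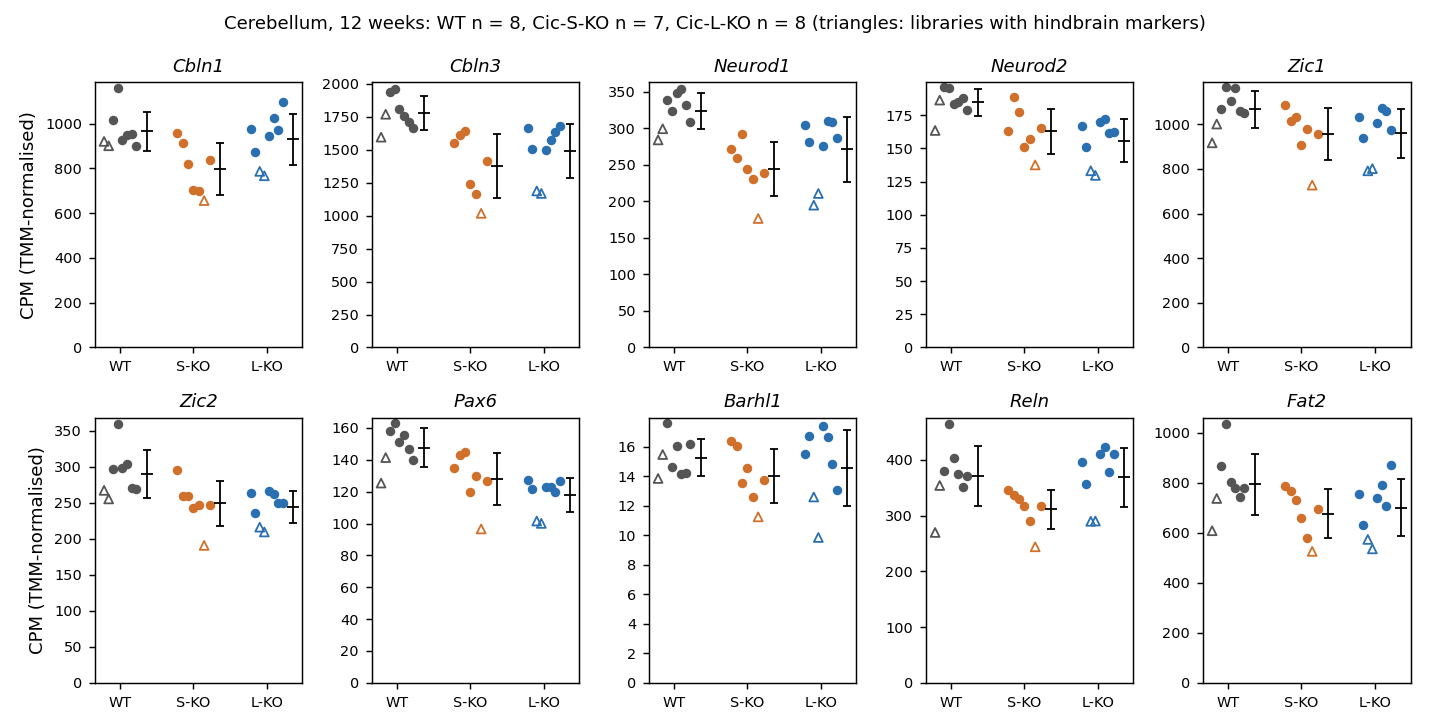
Normalised CPM of the 10 genes in each cerebellum sample, from 0, with the mean and SD of each group at its right; triangles are the 5 libraries with hindbrain markers. The Cic-S-KO samples of Neurod1 lie between 176 and 293 CPM and 6 of 7 are below every WT sample.

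Among the transcription factors, Neurod1 (ENSMUSG00000034701.9, chr2:79452521-79456751, minus strand) had the largest difference in Cic-S-KO. It stood at 284 CPM in the lowest WT sample, a median of 328 and 354 in the highest. In Cic-S-KO the corresponding values were 176, 244 and 293, and in Cic-L-KO 195, 284 and 309.9. In all, 6 of 7 Cic-S-KO samples and 4 of 8 Cic-L-KO samples lay below every WT sample. Cic-S-KO was 24.4% lower, a log2 fold change of -0.40 (SE 0.10, adjusted p = 0.0173, edgeR). The estimate for Cic-L-KO was -0.25 (SE 0.098) and missed the threshold at an adjusted p of 0.0688 (edgeR). Neurod1 shares 201 bp of exon with the same-strand gene Cerkl and 154 bp with Gm26755, and neither of these was called (Cerkl -0.45, adjusted p = 0.0925 in Cic-S-KO, edgeR).

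Neurod2 (ENSMUSG00000038255.6, chr11:98325415-98329648, minus strand), its close relative, ranged from 163 through a median of 186 to 196 CPM in WT. The values were 137, 163 and 189 in Cic-S-KO and 129.7, 162 and 172 in Cic-L-KO. The groups overlapped, with 4 of 7 and 5 of 8 knockout samples under the WT range. Cic-L-KO samples had less of it (-0.25, SE 0.061, adjusted p = 0.00511, edgeR), and it did not pass in Cic-S-KO (-0.18, adjusted p = 0.0754, edgeR).

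Pax6 (ENSMUSG00000027168.21, chr2:105668900-105697364, plus strand), a paired-box factor retained in adult granule neurons, gave the smallest adjusted p of any member in Cic-L-KO. Its lowest, median and highest values were 125, 149 and 163 CPM in WT, 96.6, 130.1 and 145 in Cic-S-KO, and 100.1, 122 and 128 in Cic-L-KO. As many as 6 of 8 Cic-L-KO samples but 2 of 7 Cic-S-KO samples fell below the WT range. Cic-L-KO differed by -0.33 on the log2 scale (SE 0.070, adjusted p = 0.00179, edgeR), while the -0.21 of Cic-S-KO did not pass (adjusted p = 0.0772, edgeR).

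The zinc finger factors also had estimates below 0 in both knockouts. Zic2 (ENSMUSG00000061524.8, chr14:122475435-122479852, plus strand) ran from 255 through 284 to 359.8 CPM in WT, from 191 through 247 to 296 in Cic-S-KO and from 209.6 through 249.9 to 266 in Cic-L-KO. With the long isoform lost it was lower (-0.25, SE 0.074, adjusted p = 0.018, edgeR), with 5 of 8 samples under the WT range, and had -0.22 in Cic-S-KO (adjusted p = 0.0754, edgeR). Zic1 (ENSMUSG00000032368.14, chr9:91358058-91365810, minus strand) ran from 917 through 1065 to 1166 CPM in WT, from 728 through 978 to 1088 in Cic-S-KO and from 792 through 990.3 to 1072 in Cic-L-KO. The ranges overlapped and neither comparison passed (-0.16, adjusted p = 0.206, and -0.15, adjusted p = 0.141, edgeR). Barhl1 (ENSMUSG00000026805.14, chr2:28907679-28916668, minus strand), a homeobox factor and the least abundant member, had medians of 15.1, 13.8 and 15.2 CPM in WT, Cic-S-KO and Cic-L-KO. Its 95% intervals (estimate ± 1.96 SE, not adjusted) ran from -0.31 to 0.068 in Cic-S-KO and from -0.25 to 0.12 in Cic-L-KO.

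Of the secreted and surface proteins, both cerebellins were lower in Cic-S-KO. Cbln3 (ENSMUSG00000040380.14, chr14:55878913-55884392, minus strand), whose product needs cerebellin 1 to be secreted, had 1596, 1764 and 1965 CPM as lowest, median and highest in WT. In Cic-S-KO these were 1018, 1413 and 1641, and in Cic-L-KO 1169, 1538 and 1683. In each knockout, 5 samples lay below the WT range. Cic-S-KO differed by -0.37 on the log2 scale (SE 0.096, adjusted p = 0.0204, edgeR). For Cic-L-KO the estimate was -0.26 (SE 0.093), just short of the threshold with an adjusted p of 0.0521 (edgeR). Within Cic-S-KO, replicates 1 to 3 (1552 to 1641 CPM) were higher than replicates 4 to 7 (1018 to 1413). This division was chosen from the values. The members' sum was 5443 to 5611 CPM in replicates 1 to 3. In replicates 4 to 7 it was lower and spread, at 4600, 4483, 3784 and 5010 CPM in that order. The sums of replicates 1 to 3 lay within the WT range of 5166 to 6846 CPM, and the cause of these differences was not tested.

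Cbln1 (ENSMUSG00000031654.16, chr8:87468405-87472609, minus strand) ran from 902 through 938 to 1159.9 CPM in WT, from 657 through 819 to 959 in Cic-S-KO and from 767 through 958 to 1098 in Cic-L-KO. Below every WT sample lay 5 of 7 Cic-S-KO samples, while the Cic-L-KO median was above the WT median. Its level with the short isoform lost was 17.5% lower (-0.28 on the log2 scale, SE 0.084, adjusted p = 0.0404, edgeR). The call held in 14 of 23 fits that each left out 1 cerebellum library, with an adjusted p of up to 0.109 (edgeR) without Cic-S-KO replicate 6. It was also lost without Cic-S-KO replicate 4 (adjusted p = 0.0823), 5 (0.0866) or 7 (0.0605), and without WT replicate 3 (0.0699), 4 (0.0884), 5 (0.0548), 6 (0.0603) or 7 (0.0586, all edgeR). In Cic-L-KO the estimate was -0.055 with a 95% interval from -0.21 to 0.10.

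Reln (ENSMUSG00000042453.14, chr5:21884454-22344702, minus strand) had a median of 373 CPM in WT (269.8 to 465), 318 for Cic-S-KO (244 to 346) and 386 for Cic-L-KO (289.9 to 423). The WT spread covered nearly all knockout samples, and neither comparison passed (-0.25, adjusted p = 0.122, and -0.0075, adjusted p = 0.969, edgeR). Fat2 (ENSMUSG00000055333.14, chr11:55250609-55336564, minus strand) had medians of 779, 693 and 722 CPM in WT, Cic-S-KO and Cic-L-KO and did not pass either (-0.23, adjusted p = 0.206, and -0.18, adjusted p = 0.245, edgeR).

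**Figure D3:**
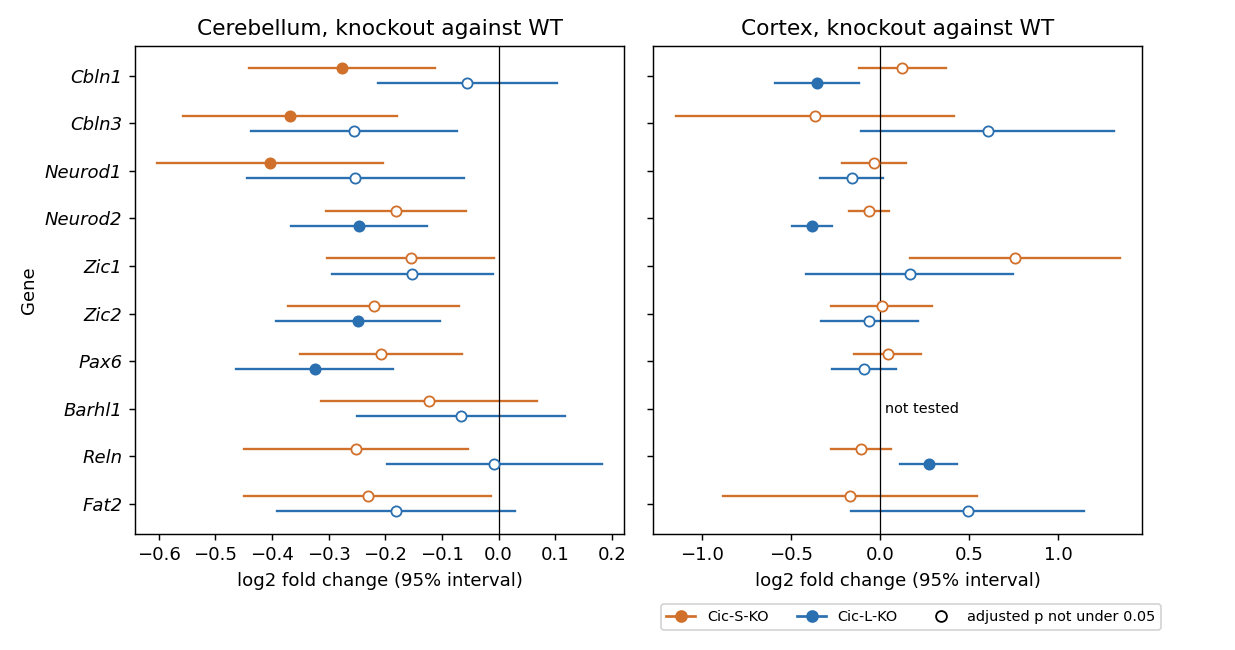
log2 fold change of each knockout against WT with its 95% interval (estimate ± 1.96 SE), in cerebellum (left) and cortex (right); filled points have an adjusted p under 0.05. All 20 cerebellum estimates lie below 0, from -0.40 to -0.0075, and the cortex estimates fall on both sides.

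The knockouts were then compared with each other in the cerebellum. None of the 10 members passed (edgeR; 2 had an unadjusted p under 0.05), where 12.4% of all genes were called, and DESeq2 also called 0. Cbln1 and Reln had the smallest adjusted p, with Cic-S-KO lower by log2 fold changes of -0.22 (SE 0.083, adjusted p = 0.0839, edgeR) and -0.24 (SE 0.10, adjusted p = 0.119, edgeR). For Neurod1 the difference was -0.15 with a 95% interval from -0.35 to 0.049, and for Pax6 it was 0.12 with an interval from -0.026 to 0.26. So although different members passed in each knockout, no member was shown to differ between them with all libraries in the fit. Cbln1 passed when Cic-S-KO replicate 1 (adjusted p = 0.0326), Cic-L-KO replicate 3 (0.0495) or Cic-L-KO replicate 4 (0.038, all edgeR) was left out.

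The libraries with hindbrain markers were examined beside these values. In each genotype the library with the lowest summed level of the 10 members also had the highest summed level of 7 oligodendrocyte markers, and it was among the 5 with hindbrain markers. These were WT replicate 1 (5166 CPM for the members, 10539 for the oligodendrocyte markers), Cic-S-KO replicate 6 (3784 and 11946) and Cic-L-KO replicate 4 (4223 and 10037). Some libraries outside these 5 also had member sums below the lowest WT sum. They were Cic-S-KO replicates 4, 5 and 7 (4600, 4483 and 5010 CPM) and Cic-L-KO replicate 2 (5115 CPM). The cause of the low sums was not tested. The medians of the member sum were 5905 for WT, 5010.4 for Cic-S-KO and 5524 for Cic-L-KO. Choroid plexus markers (Ttr, Folr1, Kl, Clic6 and Aqp1) varied from 28.1 to 4195 CPM between cerebellum libraries, the highest in Cic-S-KO replicate 6.

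**Figure D4:**
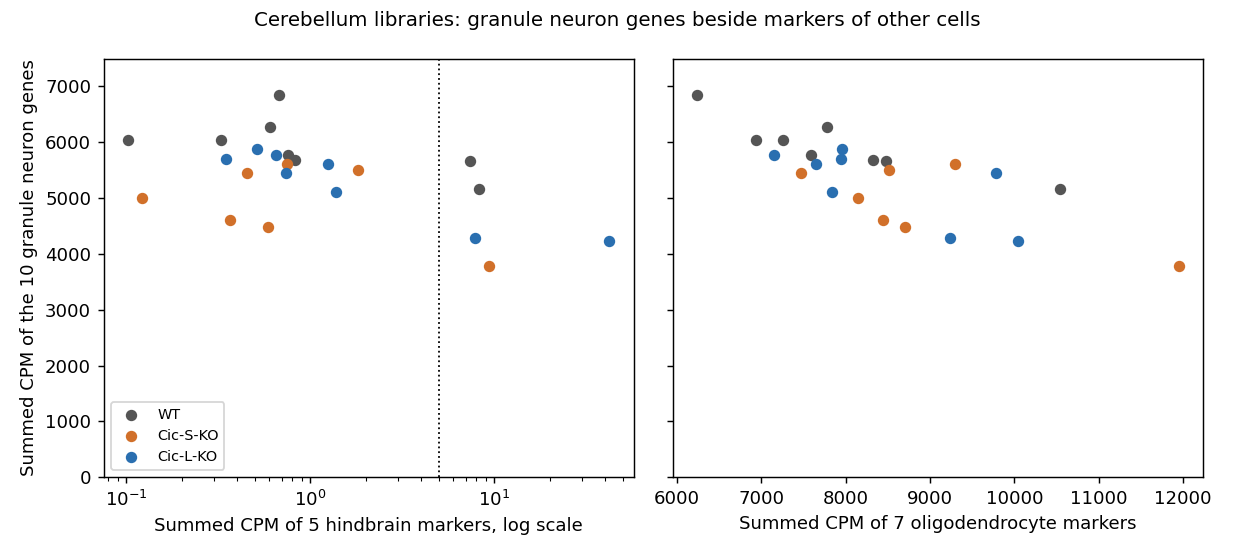
Summed CPM of the 10 genes in each of 23 cerebellum libraries against the summed CPM of 5 hindbrain markers (left, log axis; dotted line at 5 CPM) and of 7 oligodendrocyte markers (right). The 5 libraries right of the dotted line include the lowest library of each genotype (5166, 3784 and 4223 CPM).

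Without these 5 libraries, 8 of the 10 members were lower in Cic-S-KO than in WT, all but Barhl1 and Fat2, while 10.8% of all genes were called and 5.46% were lower. Neurod1 had -0.38 (adjusted p = 1.32e-05), Reln -0.27 (0.0025), Pax6 -0.19 (0.00321), Cbln3 -0.33 (0.00466), Neurod2 -0.17 (0.0133), Zic2 -0.21 (0.0214), Zic1 -0.14 (0.033) and Cbln1 -0.26 (0.039, all edgeR). In Cic-L-KO, 4 members were lower, Pax6, Neurod2, Zic2 and Neurod1 (-0.18, adjusted p = 0.00885, edgeR), while 19.2% of all genes were called and 9.49% were lower. Most Cic-L-KO estimates came closer to 0, and Barhl1 and Reln moved to 0.025 and 0.020. Most Cic-S-KO estimates also came closer to 0 (Cbln3 from -0.37 to -0.33, Neurod1 from -0.40 to -0.38), while those of Reln and Fat2 moved away from it. The added Cic-S-KO calls other than Reln thus came with smaller differences. Between the knockouts, 3 members were now lower in Cic-S-KO, where 14.4% of all genes were called: Reln (-0.29, adjusted p = 0.00078), Neurod1 (-0.20, adjusted p = 0.00517) and Cbln1 (-0.26, adjusted p = 0.0339, edgeR).

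Genes next to the members were read beside them, since it is not given in the sources used here whether counting used strand. Gm2694, a long noncoding RNA that spans Cbln1 on the other strand without sharing exons, was lower in Cic-S-KO cerebellum (-0.32, SE 0.089, adjusted p = 0.0259, edgeR) but was not called with the long isoform lost (-0.029, adjusted p = 0.848, edgeR), and the knockouts differed from each other (-0.29, adjusted p = 0.0302, edgeR). Khnyn, whose start lies 555 bp from that of Cbln3 on the other strand, was also lower with the short isoform lost (-0.24, SE 0.066, adjusted p = 0.024, edgeR). Khnyn was not called in Cic-L-KO cerebellum (-0.069, adjusted p = 0.479, edgeR) or between the knockouts there (-0.17, adjusted p = 0.0901, edgeR). In Cic-L-KO cortex it was higher (0.31, adjusted p = 1.36e-05, edgeR). Pax6os1, antisense to Pax6, and 2610035F20Rik, which starts 236 bp from Zic2, were not called in either knockout. Zic4 overlaps 60 bp of Zic1 exon and was not called (-0.069 and 0.066). Reln overlaps 7 genes annotated as pseudogenes, antisense RNAs or unclassified transcripts. Of these, Gm10475, antisense with 246 bp of shared exon, and 5 others had at most 13 counts in any brain library and were not tested, and Gm16111 was called in neither knockout.

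Other genes of mature granule neurons were read beside the members. These genes and the lists below, like the members, were chosen with earlier results of these data known, so their counts are a description. Of 12 such genes, Cic-S-KO had 10 lower and Cic-L-KO 8, against 3.89% and 10.6% of all genes. None was higher, and the medians were -0.35 and -0.32. The remaining genes, Grm4 and Etv1 in Cic-S-KO and Gabrd, Grin2c, Grm4 and Kcnk9 in Cic-L-KO, also had estimates below 0. Kcnd2, a subunit of the A-type potassium channel, stood at 318 to 410.3 CPM in WT, 203 to 299 in Cic-S-KO and 239 to 333 in Cic-L-KO, and all 7 Cic-S-KO samples lay below WT (-0.45, SE 0.080, adjusted p = 0.00172, and -0.31, SE 0.077, adjusted p = 0.006, edgeR). Chn2, a Rac GTPase-activating protein, fell by 0.42 on the log2 scale in Cic-S-KO and by 0.49 in Cic-L-KO (adjusted p = 0.00994 and 0.000644, edgeR). Calb2, the parallel fibre calcium buffer calretinin, had -0.33 and -0.39 (adjusted p = 0.0187 and 0.0017, edgeR). Gabrd, the delta subunit of the extrasynaptic GABA receptor of granule neurons, was lower in Cic-S-KO (-0.42, adjusted p = 0.00467), not in Cic-L-KO (-0.075, adjusted p = 0.571), and differed between them (-0.35, adjusted p = 0.00952, edgeR). Without the 5 libraries with hindbrain markers the counts were again 10 and 8 (5.46% and 9.49% of all genes were lower). Without the low-count filter 5 were called in Cic-S-KO. The list sum in Cic-S-KO was 4495 to 4541 CPM in replicates 1 to 3. In replicates 4 to 7 it was lower and spread, at 3815, 3735, 3089 and 3937 CPM in that order. Its WT range was 4480 to 5732 CPM. In WT, 9 of the 12 were higher in cerebellum than in cortex and 2 were lower, where 73.5% of all genes were called. In the cortex comparisons, 11 of these genes were tested. There Cic-S-KO had 1 lower, Cadps2, with a list median of 0.016, where 6.53% of all genes were called. Cic-L-KO had 8 lower and 1 higher, Grin2c, with a median of -0.21, where 43.2% of all genes were called. Between the regions, the Cic-S-KO effect was lower in cerebellum than in cortex for 5 of 12 genes, Gabrd, Calb2, Kcnd2, Kcnk9 and Chn2 (list median -0.37, edgeR), where 4.5% of all genes were called. The Cic-L-KO effect was lower in cerebellum for 2, Grin2c and Kcnk9 (list median -0.067, edgeR), where 23% of all genes were called.

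Genes known from the precursor stage were called in both directions in Cic-L-KO only. At 12 weeks of age, the cells that gave these reads were not identified. Over all tested genes, 8.23% were called in Cic-S-KO, 21.5% in Cic-L-KO and 12.4% between the knockouts. Of 8 tested precursor and hedgehog genes, 1 was lower in Cic-S-KO, Boc, a hedgehog co-receptor (-0.23, adjusted p = 0.0496, edgeR), a call lost under RLE normalisation. In Cic-L-KO 3 were lower, Boc (-0.40), the hedgehog effector Gli1 (-0.49) and the proliferation marker Mki67 (-0.93), and 2 were higher, the cyclins Ccnd1 (0.47) and Ccnd2 (0.51), with adjusted p from 0.000116 to 0.0225 (edgeR). Between the knockouts, Gli1 and Mki67 were higher with the short isoform lost, by 0.64 and 1.37 (adjusted p = 2.48e-05 and 0.0022, edgeR), and Ccnd1 was lower (-0.39, adjusted p = 0.00179, edgeR). Gli2 was not analysed here.

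Paralogs of the members split. Barhl2, another granule lineage homeobox gene, was lower in both knockouts (-0.37, adjusted p = 0.0417, and -0.38, adjusted p = 0.0144, edgeR), while Barhl1 was not called. Zic5 was lower in Cic-L-KO (-0.29, adjusted p = 0.00347) and had -0.079 in Cic-S-KO (adjusted p = 0.539, edgeR), and Fat4 was higher in Cic-S-KO (0.44, adjusted p = 0.0108, edgeR). In all, 1 of 10 tested paralogs was higher and 1 lower in Cic-S-KO, where 8.23% of all genes were called. In Cic-L-KO 2 were lower, where 21.5% of all genes were called.

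Reelin signalling genes, the partners of the secreted member Reln, were examined next. Of 9 reelin receptor and signalling genes none was called in either knockout (edgeR), where 8.23% and 21.5% of all genes were. The estimates lay between -0.13 and 0.091. Crk, an adaptor, had the smallest p of the list (-0.13, adjusted p = 0.0948, edgeR).

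Markers of the other cell types of the cerebellum were read in the same way, and their part in the member differences was not tested. Of 7 markers of cerebellar inhibitory interneurons, 5 were higher in each knockout, Gad1, Gad2, Kit, Sorcs3 and Pvalb, and none was lower. With all libraries, the share of all genes called was 8.23% with the short isoform lost and 21.5% with the long one lost. The same shares stand behind the marker counts of the other cell types below. Without the 5 libraries with hindbrain markers, 4 interneuron markers were higher in each knockout, with medians of 0.23 and 0.18. In those fits 10.8% and 19.2% of all genes were called. Whether the interneuron markers are confined to interneurons was not tested. Kit, a receptor of molecular layer interneurons, stood at 258 to 319 CPM in WT, 328 to 507 in Cic-S-KO and 333 to 479.9 in Cic-L-KO with no overlap with WT (0.37, adjusted p = 0.00689, and 0.42, adjusted p = 0.000594, edgeR). Gad1, the GABA-synthesising enzyme, was higher by 0.27 in both (adjusted p = 0.00408 and 0.000875, edgeR). The summed level of the list ran from 1924 to 2258 CPM in WT, 2299.9 to 2758 in Cic-S-KO and 2364 to 2797 in Cic-L-KO.

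Of 7 Purkinje cell markers, 2 were higher in Cic-S-KO, the glutamate transporter Slc1a6 (0.22) and the inositol trisphosphate receptor Itpr1 (0.31), and none passed in Cic-L-KO. The summed level ran from 7548 to 10989 CPM in WT, 9740.4 to 12708 in Cic-S-KO and 8891 to 11720.4 in Cic-L-KO. Of 7 Bergmann glia and astrocyte markers, 3 were higher in Cic-S-KO (Hopx 0.37, Slc1a3 0.21 and Aldh1l1 0.16) and 3 lower in Cic-L-KO, among them Gdf10, a Bergmann glia marker, at 117 to 163 CPM against 175 to 273 in WT (-0.67, SE 0.095, adjusted p = 3.86e-05, edgeR). All 4 endothelial markers were higher in Cic-L-KO, with a median of 0.59, and none in Cic-S-KO. Oligodendrocyte markers had 1 of 7 higher in Cic-S-KO (Mog; 3 without the 5 libraries) and 0 in Cic-L-KO (2 without them), microglial markers 0 and 1 of 6 (Csf1r), and choroid plexus markers 0 of 5 in each. In Cic-S-KO, estimates above 0 were found for 7 of 7 Purkinje, 6 of 7 Bergmann glia and astrocyte and 3 of 4 endothelial markers. They were also found for 7 of 7 oligodendrocyte, 6 of 6 microglial and 5 of 5 choroid plexus markers. In Cic-L-KO the same order gave 5, 3, 4, 7, 5 and 5. Without the 5 libraries, 3 Purkinje, 4 Bergmann glia and astrocyte and 1 microglial marker were called higher in Cic-S-KO. In Cic-L-KO 2 microglial markers then were.

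**Figure D5:**
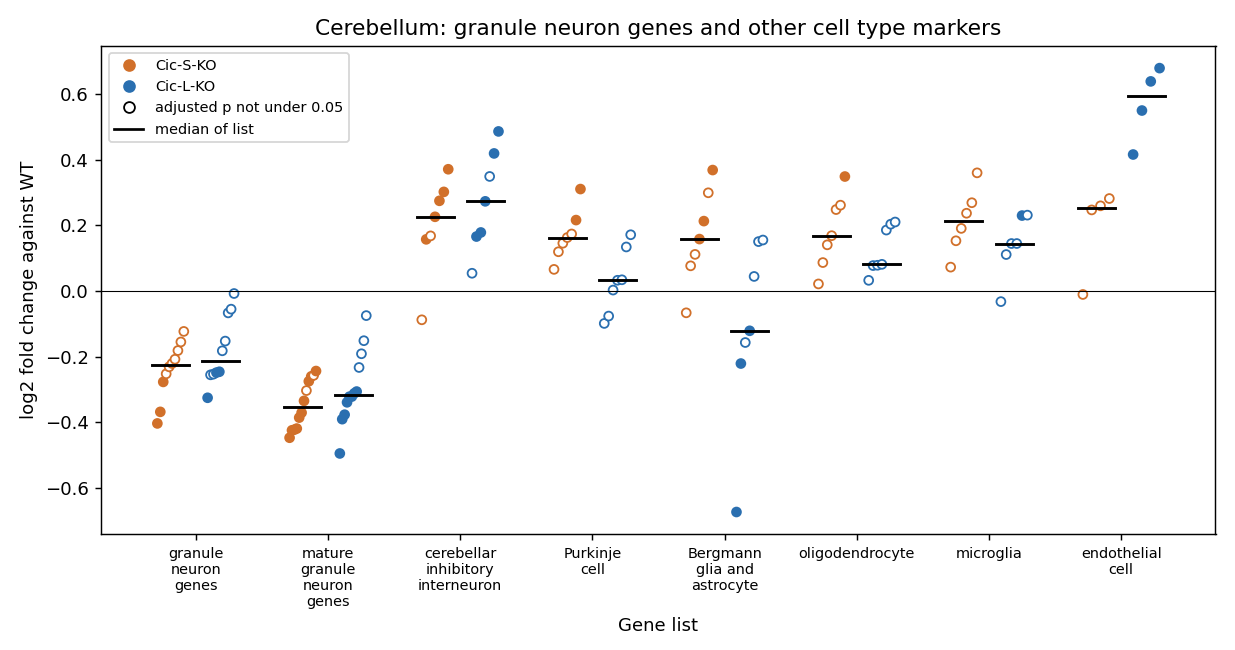
log2 fold change against WT in the cerebellum of each gene of 8 lists, Cic-S-KO and Cic-L-KO side by side; filled points have an adjusted p under 0.05 and bars are list medians. The 10 granule neuron genes (medians -0.23 and -0.21) and 12 mature granule neuron genes (-0.35 and -0.32) lie below 0, and the inhibitory interneuron markers (0.23 and 0.27) lie mostly above it.

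In the cortex, calls among the members were few and went both ways. In Cic-S-KO none of the 9 tested members passed (edgeR; 1 had an unadjusted p under 0.05), where 6.53% of all genes were called, and DESeq2 called 0. That 1 gene was Zic1, at 13.2 to 38.7 CPM in Cic-S-KO and 6.73 to 20.2 in WT, with an estimate of 0.76 (SE 0.30, adjusted p = 0.133, edgeR). In Cic-L-KO 3 members were called, where 43.2% of all genes were. Neurod2 stood at 65.0 to 93.5 CPM against 98.4 to 117 in WT, with no overlap (-0.38, SE 0.057, adjusted p = 3.8e-06, edgeR). Cbln1 was lower (-0.35, SE 0.12, adjusted p = 0.0205, edgeR), at 8.43 to 11.4 CPM against 8.88 to 15.2, and lost its call without WT replicate 1 (adjusted p = 0.0506), without WT replicate 6 (0.0531) or without the low-count filter (0.0631, all edgeR). Reln was higher (0.27, SE 0.082, adjusted p = 0.00987, edgeR), at 117 to 157 CPM against 86.9 to 133. Gm2694 was again lower beside Cbln1 (-0.75, adjusted p = 0.000413, edgeR).

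The same 3 genes differed between the knockouts in cortex, where 33.9% of all genes were called. Compared with Cic-L-KO, Cic-S-KO cortex had more Cbln1 (0.48, adjusted p = 0.00364) and Neurod2 (0.32, adjusted p = 8.44e-05) and less Reln (-0.38, adjusted p = 0.00128, edgeR). Neurod2 was thus lower with loss of the long isoform in both regions.

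Whether a knockout acted differently in the 2 regions was tested directly over 46 libraries. For Cic-S-KO no member passed (edgeR), where 4.5% of all genes were called, and 3 had an unadjusted p under 0.05. Zic1 came closest (-0.91, SE 0.30, adjusted p = 0.0703, edgeR), and DESeq2 called 1 member. All 10 estimates were below 0, where 47.8% of all genes were, with Cbln1 at -0.40 (adjusted p = 0.14) and Neurod1 at -0.37 (adjusted p = 0.155, edgeR). Those of Cbln3 (-0.0022, SE 1.91), Fat2 (-0.043, SE 0.42) and Barhl1 (-0.20, SE 0.66) were smaller than their SE, so their signs are uncertain. Without the 5 libraries with hindbrain markers, Neurod1 passed (-0.34, adjusted p = 0.0479, edgeR), while 4.79% of all genes did. Cbln3 then had an estimate above 0 (0.037, adjusted p = 0.977, edgeR). For Cic-L-KO no member passed (edgeR), where 23% of all genes were called, 2 had an unadjusted p under 0.05 and DESeq2 called 0. Neurod2 had 0.14 (adjusted p = 0.279) and Cbln1 0.30 (adjusted p = 0.164, edgeR), so the lower Cbln1 in Cic-L-KO cortex and its value near WT in Cic-L-KO cerebellum were not shown to differ.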

How the data were processed

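Total RNA from flash-frozen tissue was made into polyA-selected libraries, per the labels' protocols. The table the authors deposited holds raw read counts for 50789 Ensembl gene identifiers with versions, in 70 columns that each match 1 sample. The submitters' processing notes name STAR 2.7 and the build GRCm38.p6. The counting program, its annotation and its use of strand are not given in the sources used here. Symbols, positions and exon lengths came from GENCODE M21 (GRCm38), which 64 identifiers did not match, and promoter windows from RefSeq (GRCm38.p6), which 8 members matched.

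Groups came from the titles. The members and lists were chosen with earlier results of these data known. Within a tissue, filterByExpr selected the genes (16643 in cerebellum, 16974 in cortex, without Barhl1), and their counts were normalised by TMM and fitted by the robust quasi-likelihood model of edgeR 4.0.16 in R 4.3.3 over all 3 genotypes. A fit of 46 brain libraries and 18032 genes gave the tissue and interaction contrasts. P-values were adjusted over all tested genes by Benjamini-Hochberg, and an adjusted p under 0.05 was a call. Standard errors were derived from the F statistic. CPM are TMM-normalised within a tissue, and RPKM divide them by exon length. Intervals are estimate ± 1.96 SE at 95%. Genes named were all members, the genes overlapping or starting near them, Cic, and at most the 4 genes of each other list with the smallest p over the cerebellum comparisons. Some genes of the lists are not reported here. Others are named where a count of 5 or fewer or a list's remainder is spelled out, chosen after their values were seen.

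Alternatives were DESeq2 1.42.0, other normalisation, a non-robust fit, no low-count filter, a stricter one that kept genes averaging 50 or more counts, only the compared groups, GC bins, the replicate number as a block, each library left out, and, added after seeing the data, the 5 cerebellum libraries with hindbrain markers left out. The code was tested on simulated data. Replicates were checked for duplicates, and 0 pairs were identical.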

Additional observations from a re-analysis of the deposited data

Results flagged for a closer look

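Of 60 sets of values (a member in a group of 7 or 8 brain samples), 3 held a sample farther from the rest than Dixon's 95% limit, and chance gives about 1 in 20, or 3. Cbln1 in WT cerebellum replicate 4 stood at 1159.9 CPM, with the other samples at 902 to 1018. Zic2 in the same library stood at 359.8 CPM, with the others at 255 to 304. This library also had the highest summed level of the members in WT, 6846 CPM. Barhl1 in WT cortex replicate 7 stood at 0.510 CPM (11 counts), with the others at 0 to 0.0845.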

How the results depend on the processing

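Members called lower in Cic-S-KO cerebellum numbered 3 in the reported fit, 5 with DESeq2, 1 without the low-count filter, 8 without the libraries with hindbrain markers and 2 to 6 when 1 library was left out. In Cic-L-KO cerebellum the 3 became 5 with DESeq2 and 3 to 5 with 1 library left out. Between the knockouts in cerebellum, the 0 became 3 without the libraries with hindbrain markers and 0 to 1 with 1 library left out. For the Cic-S-KO effect in cerebellum against cortex, the 0 became 1 with DESeq2, with a non-robust fit, with genes averaging 50 or more counts, or without the libraries with hindbrain markers. The counts for cortex, for WT cerebellum against WT cortex and for the Cic-L-KO effect moved by no more than 1.5 times under the alternatives run, and no member estimate that was called changed sign. The cause of these moves was not tested.

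With the replicate number as a block, 0 members were called in Cic-S-KO cerebellum (Neurod1 adjusted p = 0.0765, Cbln3 0.0612, Cbln1 0.115, edgeR), 2 in Cic-L-KO cerebellum, and 591 in place of 1370 genes in Cic-S-KO cerebellum. The block used the replicate number of the titles, as did the correlations that follow. The Cic-S-KO library names skip a number, so most of them carry another number than their title. Matching genotypes by library name was not tested. By title number, libraries did not all deviate together (lowest correlation -0.47 between WT and Cic-S-KO cerebellum), so the numbers were not taken as pairs. Between cerebellum and cortex, same-numbered libraries correlated over 0.1 in 7 of 7 pairs of Cic-S-KO (6 matched best with their own number), 7 of 8 of WT and 4 of 8 of Cic-L-KO. With that number as a block the regional tests again called 0 members for either knockout (smallest adjusted p 0.116, Zic1, edgeR) and 10 between WT tissues. In Cic-S-KO cortex the block gave 627 genes, GC bins 454, only the compared groups 654 and no filter 732, in place of 1108. The Cic-S-KO interaction had 446 genes without the filter in place of 812. Barhl1 at 0 to 11 counts in WT cortex is limited by depth.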
